A study of Mus musculus with 38 samples.

Results

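Wild-type mouse embryonic fibroblasts given tumour necrosis factor (TNF) for 0.5 h were compared with untreated wild-type fibroblasts. The comparison holds 4 of the 38 libraries of the series, 2 for each group, and 13843 of 45706 gene identifiers had enough counts to be tested. All cells were primary fibroblasts of strain C57BL/6 taken at the embryo stage and kept overnight in low serum before any stimulus. The groups used are wild-type (WT) cells with TNF at 10 ng/ml for 0.5, 1, 3 or 8 h and untreated WT cells. For comparison, fibroblasts homozygous for a knock-in allele of Rela that the labels call RelA-TA-KI were used after 0.5 h of TNF and untreated, again with 2 libraries each. Single WT libraries after 0.5 h of LPS at 100 ng/ml or of Poly(I:C) at 20 µg/ml were set against an untreated WT library of their own. The labels number the replicates but do not say whether a number marks an embryo, a culture or a day, so p-values measure the spread between these samples.

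TNF is an inflammatory cytokine whose receptor activates both the NF-kB transcription factors and the MAP kinases. NF-kB dimers that contain RelA wait in the cytoplasm bound to IkB inhibitors, enter the nucleus once the inhibitors are destroyed, and switch on genes for chemokines, cytokines and their own inhibitors. The MAP kinases act through serum response factor and its partners on immediate early genes, whose transcription needs no new protein and is usually brief. After 0.5 h the messenger RNA therefore reports the first wave of transcription, before most newly made proteins can act.

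The TNF libraries held 7433130 and 7431261 counts, against 6715022 and 9590932 counts in the untreated libraries. Levels are given as CPM, counts scaled to the library total of the tested genes after TMM normalization, with replicate 1 before replicate 2. The log2 CPM of the 2 replicates correlated at 0.985 across genes after TNF and at 0.982 in untreated cells. Replicate 1 was Xist-high in both groups (361 CPM after TNF, 404 CPM untreated) and replicate 2 carried the Y-linked Ddx3y (128 CPM after TNF, 145 CPM untreated), the patterns of female and of male cells, with the same number showing the same pattern in both groups. The 2 replicates of a group were thus cells of different sex, and the spread between them includes any difference between the sexes. Deviations of same-numbered libraries from their group means correlated at 0.365, and a fit with the replicate number as a block within genotype is therefore given where it changes a count. Fibroblast markers (14 of 14 tested, Col1a1 and Dcn among them) summed to 41730 and 47290 CPM after TNF, against 41370 and 50490 CPM in untreated cells. Macrophage and leukocyte markers (20 of 20 tested, none at 0 counts) summed to 1290 and 1702 CPM after TNF, against 1435 and 2260 CPM in untreated cells. Lyz2, a macrophage lysozyme, was the most abundant of them at 431 and 489 CPM after TNF, against 444 and 612 CPM in untreated cells, and Csf1r, the receptor that macrophages depend on, stood at 73.8 and 107 CPM after TNF, against 85.7 and 139 CPM in untreated cells. Rela itself stood at 83 and 81.9 CPM after TNF, against 71.9 and 72.6 CPM in untreated cells and did not pass the test (log2 fold change 0.19 ± 0.07, SE, adjusted p = 0.321).

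After 0.5 h of TNF the largest rises included those of chemokines, with the neutrophil-attracting Cxcl2 and Cxcl1 first, of inhibitors of NF-kB signalling, and of immediate early transcription factors. Cxcl2, Cxcl1 and Ccl20 among the chemokines, Tnfaip3 and Nfkbia among the inhibitors, and Fos, Fosb, Nr4a1 and Egr1 among the transcription factors each rose at least 8-fold. Fewer and smaller falls were seen, led by the prolactin receptor Prlr and the lysophospholipase Enpp2 and including 7 numbered zinc finger genes. Of the 13843 genes tested, 144 were called (1.04%), 126 of them as rises (0.91%) and 18 as falls (0.13%), at an adjusted p under 0.05 in the edgeR quasi-likelihood F test over all 20 TNF libraries. Of the 126, 64 rose at least 2-fold, 41 at least 4-fold and 22 at least 8-fold, with a median log2 fold change of 1.03. Of the 18, 3 fell at least 2-fold, and their median was -0.63. The median over all genes tested was -0.008, and 6672 of the 13843 had a positive log2 fold change. Members of a gene list were measured in the same 4 libraries, so a shared sign is not that many separate observations. In all 144 genes the libraries of the 2 groups did not overlap, against 36.5% of all genes tested. Together the 126 genes took 17555 CPM after TNF, against 7412 CPM in untreated cells, as means of 2 libraries.

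With the replicate block, 369 genes rose (2.67%) and 235 fell (1.7%), together 604 (4.36% of genes tested), and all 144 genes of the fit without it were among them. Counts given below for a gene list with the block are to be read against these shares. Leaving out 1 library gave 83 rises and 2 falls without TNF replicate 1, 78 rises and 4 falls without TNF replicate 2, 86 rises and 8 falls without untreated replicate 1, and 79 rises and 8 falls without untreated replicate 2. The fits of WT libraries alone and of the 4 libraries alone gave 72 rises with 1 fall and 65 rises with 3 falls. The lone library of an arm is then assumed to vary like the other groups.

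**Figure D1:**
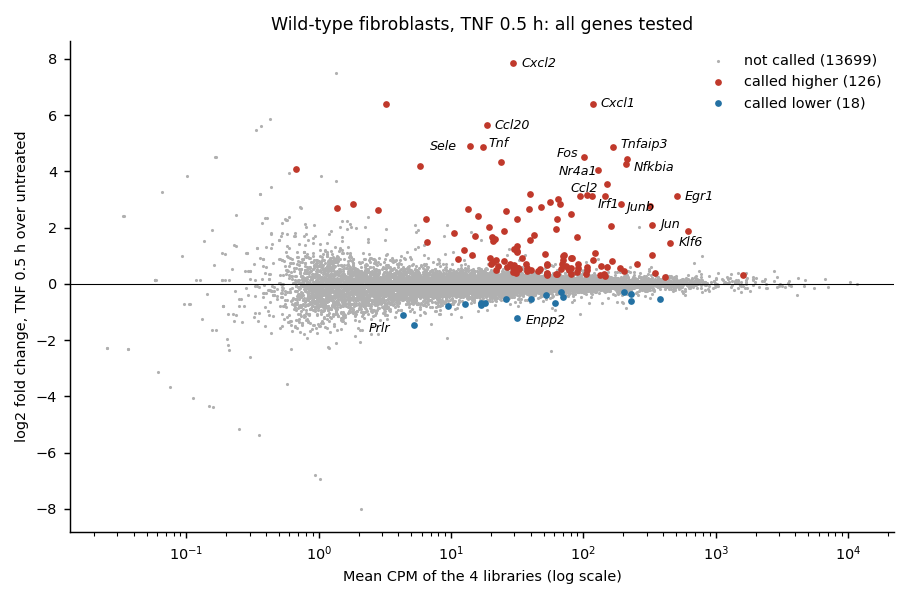
Log2 fold change of each of the 13843 genes tested (WT TNF 0.5 h over untreated, y axis) against its mean CPM over the 4 libraries (x axis, log scale). Red points are the 126 genes that rose, blue points the 18 that fell and grey points the 13699 that did not pass the test; the red points reach further from 0 than the blue.

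Some of the promoters of the genes that rose carry the 10-base kappaB sequence that NF-kB dimers bind. The stretch from 250 bases before to 50 after the annotated start was available from RefSeq (GRCm38.p6) for 100 of the 126 genes, 14 of the 18 that fell and 10478 genes that were not called. A gene can have several starts and so several windows. A kappaB match on either strand was found for 19 of the 100 genes that rose (19.0%), for none of the 14 that fell, and for 6.5% of the genes not called. Counted by window, the match was in 15.6% of the 135 windows of the genes that rose, against 5.4% of those of the genes not called and 4.5% of all 32851 windows in the table. The 19 genes were Bcl10, Bcorl1, Ccl20, Ccrl2, Cxcl1, Cxcl10, Cxcl2, Egr4, Fos, Fosb, Ier3, Il6, Irf1, Maff, Nfkb2, Nfkbia, Nr4a1, Sdc4 and Tnfaip3. The cyclic-AMP response element TGACGTCA was found for 12.0% of the genes that rose, none of those that fell and 3.4% of those not called, and in 8.9% of the windows of the genes that rose, against 2.8% for those not called and 1.8% of all windows. The AP-1 sequence TGANTCA was found for 10.0% of the genes that rose, 2 of the 14 that fell (14.3%) and 6.3% of those not called. By window its share was 7.4% for the genes that rose, 11.1% for those that fell and 5.3% for those not called, against 7.8% of all windows, so the genes that rose did not stand above the table. The CArG box of serum response factor was found for 5.0% of the genes that rose (Dusp5, Egr2, Kif20b, Rnd3 and Zfp36), none of those that fell and 1.6% of those not called, and in 5.9% of the windows of the genes that rose, against 1.3% for those not called and 1.6% of all windows. CRE and AP-1 letters can overlap in part. A match is a run of letters in a window, not a shown binding site.

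The stretches upstream of the RefSeq start are shown for 4 inflammatory and 4 immediate early genes with large rises, 5′ to 3′ along the gene on mm10 (GRCm38) with kappaB matches in capitals. They are shown for the position and letters of the matches, and were chosen, in order of the rise, among called genes of the inflammatory and immediate early lists that have a kappaB or CArG match upstream, so they do not show how common a match is. Tnf had none of the 4 motifs in its window, Sele had AP-1 alone and Zfp36 the CArG box alone, although each rose as steeply as some of the genes shown. Their positions are chr5:90903649-90903898 (plus strand) for Cxcl2, chr5:90890995-90891244 (plus) for Cxcl1, chr1:83116516-83116765 (plus) for Ccl20, chr10:19015411-19015547 (minus) for Tnfaip3, chr6:85513590-85513839 (minus) for Egr4, chr12:85473640-85473889 (plus) for Fos, chr7:19310046-19310295 (minus) for Fosb and chr17:35821463-35821712 (plus) for Ier3. Each is 250 bases except that of Tnfaip3, which is 137 bases because an exon of another annotated transcript lies further upstream.
Cxcl2: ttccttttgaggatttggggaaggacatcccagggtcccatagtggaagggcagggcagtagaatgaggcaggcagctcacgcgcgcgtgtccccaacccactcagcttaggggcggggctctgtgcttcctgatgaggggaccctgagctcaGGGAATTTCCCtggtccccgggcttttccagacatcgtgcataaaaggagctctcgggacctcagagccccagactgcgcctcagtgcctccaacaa
Cxcl1: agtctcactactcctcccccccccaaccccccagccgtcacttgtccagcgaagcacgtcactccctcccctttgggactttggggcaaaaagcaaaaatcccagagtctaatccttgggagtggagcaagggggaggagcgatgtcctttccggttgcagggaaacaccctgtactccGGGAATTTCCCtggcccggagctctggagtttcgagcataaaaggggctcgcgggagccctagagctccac
Ccl20: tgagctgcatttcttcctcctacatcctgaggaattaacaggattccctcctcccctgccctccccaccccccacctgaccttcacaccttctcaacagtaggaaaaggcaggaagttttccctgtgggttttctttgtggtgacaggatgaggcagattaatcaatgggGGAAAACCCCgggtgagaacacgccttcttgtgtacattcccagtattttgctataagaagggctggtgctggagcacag
Tnfaip3: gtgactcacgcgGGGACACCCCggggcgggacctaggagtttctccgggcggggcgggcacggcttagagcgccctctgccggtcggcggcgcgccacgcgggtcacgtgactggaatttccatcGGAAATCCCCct
Egr4: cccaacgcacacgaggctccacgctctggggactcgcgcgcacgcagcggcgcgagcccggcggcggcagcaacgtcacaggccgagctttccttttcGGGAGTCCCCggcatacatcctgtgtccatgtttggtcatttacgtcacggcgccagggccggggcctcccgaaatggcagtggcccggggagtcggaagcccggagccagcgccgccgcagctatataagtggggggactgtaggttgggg
Fos: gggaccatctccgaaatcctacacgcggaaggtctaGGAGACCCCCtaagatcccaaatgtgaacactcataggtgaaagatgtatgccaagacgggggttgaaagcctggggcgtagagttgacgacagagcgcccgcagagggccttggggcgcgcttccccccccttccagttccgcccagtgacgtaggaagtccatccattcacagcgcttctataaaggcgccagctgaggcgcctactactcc
Fosb: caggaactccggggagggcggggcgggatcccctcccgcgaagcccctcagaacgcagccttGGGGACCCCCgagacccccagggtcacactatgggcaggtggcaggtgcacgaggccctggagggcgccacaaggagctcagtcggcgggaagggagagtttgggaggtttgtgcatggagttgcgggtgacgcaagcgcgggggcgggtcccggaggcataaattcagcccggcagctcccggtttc
Ier3: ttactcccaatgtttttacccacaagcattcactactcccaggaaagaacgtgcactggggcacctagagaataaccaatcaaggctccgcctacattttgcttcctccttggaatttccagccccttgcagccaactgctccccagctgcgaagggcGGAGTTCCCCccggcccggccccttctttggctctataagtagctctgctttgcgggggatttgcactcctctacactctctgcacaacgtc
Cxcl2 and Cxcl1, neighbours on chromosome 5, share the run GGGAATTTCCC, which holds 2 overlapping matches and begins 97 bases before the start of Cxcl2 and 71 before that of Cxcl1. Tnfaip3 has 2 separate matches, 125 and 12 bases before the start. The match of Ccl20 lies 80 bases before the start, that of Ier3 92, that of Egr4 152, that of Fosb 188 and that of Fos 214.

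**Figure D2:**
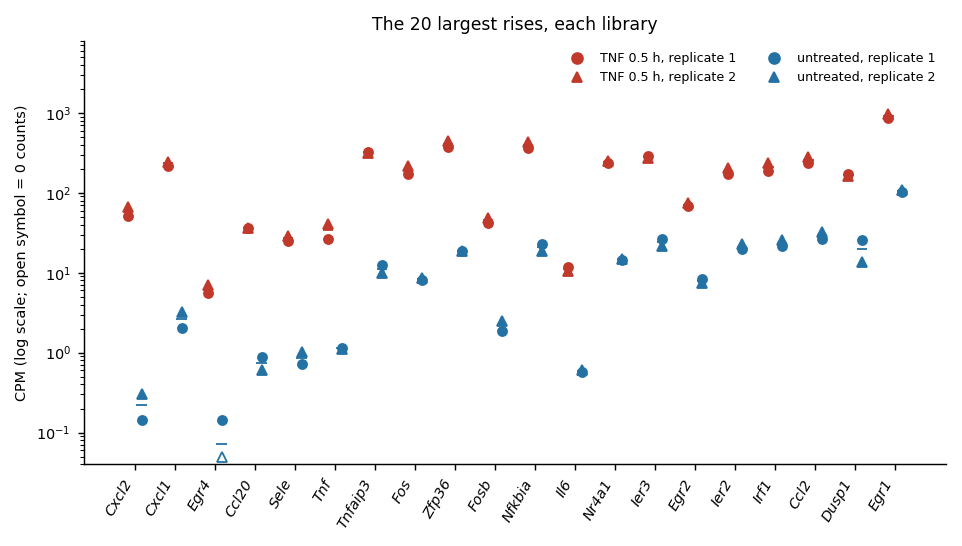
CPM (log scale) of the 20 genes with the largest rise, in order of their fold change. They were chosen among called genes averaging 20 counts or more over the 4 libraries whose groups did not overlap. Red symbols are the 2 TNF 0.5 h libraries and blue symbols the 2 untreated ones (circle replicate 1, triangle replicate 2, dash mean, open symbol 0 counts). Both red symbols lie above both blue ones in all 20 genes because the choice required it.

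The AP-1 factors are dimers of Fos, Jun and ATF proteins that form within minutes of a stimulus. Of 12 AP-1 and ATF genes tested, 7 rose, none fell and the median log2 fold change was 1.38. Fos (chr12:85473890-85477273) had 172 and 214 CPM after TNF, against 8.12 and 8.57 CPM in untreated cells. The replicates lay close together within each group, and Fos rose by 4.53 ± 0.30 on the log2 scale (SE, n = 2 a group, adjusted p = 1.93e-07). Its paralogue Fosb had 42 and 49 CPM after TNF, against 1.89 and 2.52 CPM in untreated cells (log2 fold change 4.33 ± 0.22, adjusted p = 8.14e-09). Junb, which had 328 and 343 CPM after TNF, against 52.4 and 42.2 CPM in untreated cells, rose by 2.84 ± 0.10, and Jun, with 523 and 538 CPM after TNF, against 129.5 and 119 CPM in untreated cells, by 2.10 ± 0.08. Atf3, a stress-induced repressor, rose by 2.85 ± 0.15, the small Maf protein gene Maff by 1.19 ± 0.19 and Jund by 0.33 ± 0.06. Fosl1 did not pass the test (log2 fold change 1.56 ± 0.38, adjusted p = 0.0862) but did with the replicate block (adjusted p = 9.58e-06). It stood at 29.9 and 20 CPM after TNF, against 11.7 and 5.75 CPM in untreated cells, with replicate 1 the higher in both groups.

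The zinc finger EGR proteins and the NR4A orphan nuclear receptors form the second set of immediate early factors. Of 9 EGR, NAB and NR4A genes, 7 rose, and the list's median of 2.66 was the highest among the lists described here. Egr1 had 862 and 960.3 CPM after TNF, against 101 and 109 CPM in untreated cells, both TNF libraries standing far above both untreated ones (log2 fold change 3.11 ± 0.15, adjusted p = 4.79e-09). Egr2 had 67.6 and 74.8 CPM after TNF, against 8.27 and 7.46 CPM in untreated cells (log2 fold change 3.18 ± 0.13) and Egr3 24.2 and 22 CPM after TNF, against 3.77 and 3.53 CPM in untreated cells (log2 fold change 2.66 ± 0.15). Egr4 was barely present in untreated cells, with 1 count in 1 of the libraries, against 41 and 54 counts after TNF. The ratio of its summed counts, scaled for the same normalized totals, was 106.5 (95% interval 18.7 to 4250.2, which covers counting error only). Nr4a1 had 234 and 252 CPM after TNF, against 14.6 and 14.9 CPM in untreated cells (log2 fold change 4.04 ± 0.12, adjusted p = 3.16e-11), Nr4a3 rose by 2.31 ± 0.25 and Nr4a2 by 1.21 ± 0.20.

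Fewer members moved among the Kruppel-like and other early factors, 5 of 28 with a list median of 0.14. Klf6 had 647 and 678 CPM after TNF, against 253 and 229.7 CPM in untreated cells (log2 fold change 1.46 ± 0.08, adjusted p = 1.93e-08). Csrnp1 rose by 2.73 ± 0.15, Klf2 by 1.12 ± 0.17, the growth regulator Myc by 1.03 ± 0.10 and Klf10 by 0.83 ± 0.11. Myc stood at 94.3 and 98.5 CPM after TNF, against 50 and 44.6 CPM in untreated cells, so that its groups did not overlap although the change was only about as large as the median of the 126 genes.

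Of 37 other immediate early genes, 19 rose, none fell and the median was 0.91. Ier3, which protects against TNF-induced cell death, had 287 and 272 CPM after TNF, against 26.5 and 21.5 CPM in untreated cells (log2 fold change 3.55 ± 0.17, adjusted p = 6.30e-09). Ier2 had 173 and 207 CPM after TNF, against 20 and 22.6 CPM in untreated cells (log2 fold change 3.15 ± 0.14). Btg2, an anti-proliferative gene, had 536 and 578 CPM after TNF, against 87.3 and 76.3 CPM in untreated cells (log2 fold change 2.77 ± 0.08, adjusted p = 3.01e-11). Gem, a small GTPase, rose by 2.30 ± 0.14, Errfi1, an inhibitor of the EGF receptor, by 2.06 ± 0.16, the synaptic gene Arc by 2.02 ± 0.18, the matricellular Ccn1 by 1.88 ± 0.32, the kinase gene Pim1 by 1.73 ± 0.16 and Ppp1r15a, which helps to restart translation under stress, by 1.69 ± 0.11. With the replicate block 27 of the 37 rose. Ptgs2, which encodes the prostaglandin-forming cyclooxygenase 2, was one of the 8 added: it stood at 531 and 311 CPM after TNF, against 148 and 59.2 CPM in untreated cells (log2 fold change 2.03 ± 0.49, adjusted p = 0.0738, and 5.41e-09 with the block). Replicate 1 was the higher in both groups, and the groups did not overlap, which was also so for 36.5% of all genes tested.

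Genes whose products switch MAP kinase signalling off were among the rises too: 6 of 16 dual-specificity phosphatase and Sprouty genes were called, with a list median of 0.35. Dusp1 had 172 and 164 CPM after TNF, against 25.5 and 13.8 CPM in untreated cells (log2 fold change 3.13 ± 0.21, adjusted p = 2.50e-07), the untreated replicates lying further apart than those after TNF. Dusp5 rose by 1.65 ± 0.29, Dusp8 by 1.61 ± 0.16, Spry2 by 0.98 ± 0.11 and Spry4 by 0.94 ± 0.11. Dusp2 had 7 and 12 counts after TNF, against 1 count in 1 untreated library and 0 in the other, a scaled ratio of 21.3 (95% interval 3.39 to 885.0, adjusted p = 0.0486).

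The brakes on NF-kB were among the steepest rises. IkB-alpha, encoded by Nfkbia, binds RelA and returns it to the cytoplasm, and its gene is a classic NF-kB target. Nfkbia (chr12:55489411-55492647) had 364 and 427 CPM after TNF, against 22.9 and 18.8 CPM in untreated cells. It rose by 4.26 ± 0.12 on the log2 scale (SE, n = 2 a group, adjusted p = 3.01e-11), and the groups were far apart. Nfkbiz, an atypical nuclear IkB, had 111 and 119 CPM after TNF, against 16.5 and 12.3 CPM in untreated cells (log2 fold change 3.01 ± 0.26, adjusted p = 4.97e-06). The remaining IkB family genes were not called, although all 7 members had a positive log2 fold change (median 0.87), and Nfkbid and Bcl3 passed the test with the replicate block (adjusted p = 0.0142 and 0.0276). Nfkbid stood at 2.97 and 2.77 CPM after TNF, against 0.29 and 1.01 CPM in untreated cells and Bcl3 at 11.2 and 9.88 CPM after TNF, against 5.95 and 5.65 CPM in untreated cells.

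Tnfaip3 encodes A20, a ubiquitin-editing enzyme that ends signalling from the TNF receptor. Tnfaip3 (chr10:19000910-19015657) had 324 and 319 CPM after TNF, against 12.5 and 9.98 CPM in untreated cells (log2 fold change 4.85 ± 0.16, adjusted p = 1.07e-10). Of 12 A20-related genes it and the RNase gene Zc3h12a (log2 fold change 1.82 ± 0.19) rose, with a list median of 0.04. Of the 5 NF-kB subunit genes Nfkb2, which encodes p100, was called at 59 and 59.7 CPM after TNF, against 46.6 and 47.3 CPM in untreated cells (log2 fold change 0.34 ± 0.07, adjusted p = 0.0368), a small change that lost its call in 9 of 13 alternative analyses. Relb had a log2 fold change of 0.15 ± 0.15 and Nfkb1 of 0.05 ± 0.07, and neither passed the test. None of 27 TNF receptor complex and IAP genes was called (median -0.03), which is near the 1.04% of all genes tested. An abundant adaptor of the pathway, Tab2, stood at 179.8 and 192 CPM after TNF, against 176 and 200.4 CPM in untreated cells. With the block 2 of the 27 rose, against 2.67% of all genes tested. They were the kinase gene Map3k8 (6.89 and 9.22 CPM after TNF, against 2.9 and 3.53 CPM in untreated cells) and the IAP gene Birc3 (15.5 and 19 CPM after TNF, against 11.2 and 12.6 CPM in untreated cells).

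Chemokines gave the largest fold changes. Cxcl1 and Cxcl2 attract neutrophils, Ccl2 and Ccl7 attract monocytes, Ccl20 attracts cells bearing CCR6 and Cxcl10 attracts T cells. Cxcl2 (chr5:90903871-90905938) had 50.9 and 66.1 CPM after TNF, against 0.145 and 0.303 CPM in untreated cells, which is 4 counts in all in the untreated libraries against 377 and 502 after TNF. Its log2 fold change was 7.86 ± 0.52 (adjusted p = 2.09e-07). Cxcl1 (chr5:90891241-90893115) had 219.7 and 246 CPM after TNF, against 2.03 and 3.23 CPM in untreated cells (log2 fold change 6.41 ± 0.37, adjusted p = 4.68e-08). Cxcl2 was near the detection limit in both untreated libraries, Cxcl1 was low there with 14 and 32 counts, and both stood far higher in each TNF library. Ccl20 had 36.7 and 36.1 CPM after TNF, against 0.87 and 0.605 CPM in untreated cells (log2 fold change 5.64 ± 0.20, adjusted p = 1.72e-10). Ccl2 had 236 and 282 CPM after TNF, against 26.1 and 32.8 CPM in untreated cells (log2 fold change 3.13 ± 0.16), Ccl7 120.1 and 152 CPM after TNF, against 21 and 27.5 CPM in untreated cells (log2 fold change 2.47 ± 0.20) and Cxcl10 35.9 and 54 CPM after TNF, against 4.5 and 9.68 CPM in untreated cells (log2 fold change 2.60 ± 0.38, adjusted p = 0.00188). These 6 were the only ones called among 23 chemokine genes tested, and the list's median was 0.10. With the block 9 rose and 2 fell.

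Of 20 cytokine and colony-stimulating factor genes tested, 5 rose and the median was 1.03. The gene of TNF itself, Tnf (chr17:35199381-35202007), had 26.6 and 41 CPM after TNF, against 1.16 and 1.11 CPM in untreated cells (log2 fold change 4.88 ± 0.48, adjusted p = 2.45e-05). Il6, which drives the acute-phase response, had 11.8 and 10.5 CPM after TNF, against 0.58 and 0.605 CPM in untreated cells (log2 fold change 4.19 ± 0.41). Lif, a cytokine of the same receptor family, had 73 and 62.3 CPM after TNF, against 11.3 and 9.88 CPM in untreated cells (log2 fold change 2.68 ± 0.21). Tnfsf9, a T-cell costimulator, rose by 1.69 ± 0.18 and Gdf15 by 1.49 ± 0.29. Il1b, named after its values were seen, had 13 and 28 counts after TNF and 0 in both untreated libraries. Against a floor of 3 counts over both untreated libraries (0.178 CPM) it was at least 15.3-fold higher, with an adjusted p of 0.068, and 8.42e-05 with the replicate block. Tnf and Il1b are also made by macrophages, whose markers summed lower after TNF in both replicates, as given above, and the part of such cells in these rises was not tested.

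The endothelial selectin gene Sele, which marks activated endothelium, was called among 11 leukocyte adhesion genes (list median 0.11) at 24.9 and 29.1 CPM after TNF, against 0.725 and 1.01 CPM in untreated cells (log2 fold change 4.90 ± 0.38, adjusted p = 1.56e-06). Endothelial markers were low in these cultures, the 9 tested summing to 74.0 and 68.7 CPM after TNF and 87.8 and 64.2 CPM in untreated cells. Vcam1 and Icam1, which let leukocytes adhere, did not pass the test (log2 fold change 0.62 ± 0.16 and 0.52 ± 0.22, adjusted p = 0.108 and 0.478). With the block both rose (adjusted p = 3.89e-05 and 0.01). Vcam1 stood at 255 and 285 CPM after TNF, against 169 and 183 CPM in untreated cells, and Icam1 at 50 and 60.6 CPM after TNF, against 36 and 40.9 CPM in untreated cells. Neither overlapped between the groups, which was also so for 36.5% of all genes tested. Ereg was called among 22 EGF receptor ligand and angiogenic factor genes (list median 0.17) at 47.6 and 31.1 CPM after TNF, against 14.9 and 6.96 CPM in untreated cells. Replicate 1 was the higher in both groups, and its log2 fold change of 1.89 ± 0.41 had an adjusted p of 0.0432.

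Zfp36 encodes tristetraprolin, which binds AU-rich elements and speeds the decay of cytokine messages. Zfp36 (chr7:28376784-28379255) had 369.8 and 446 CPM after TNF, against 18.9 and 18.9 CPM in untreated cells (log2 fold change 4.43 ± 0.16, adjusted p = 1.52e-10). Among 11 mRNA decay genes it rose together with Zc3h12a, and the list's median was 0.17. Per base of the deposited gene model, the highest mean levels after TNF among the named genes that rose were those of Nfkbia (251 RPKM after TNF, 13.2 untreated), Ier3 (247 RPKM after TNF, 21.2 untreated), Ccl2 (228 RPKM after TNF, 25.9 untreated) and Zfp36 (228 RPKM after TNF, 10.5 untreated).

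Irf1, a transcription factor of interferon and NF-kB responses, had 187 and 233 CPM after TNF, against 21.8 and 25.7 CPM in untreated cells (log2 fold change 3.14 ± 0.17, adjusted p = 2.53e-08). It was the one member called of 8 interferon regulatory factor genes, whose median was -0.10. The interferon-stimulated genes did not follow it at this time. None of 45 tested was called, against 1.04% of all genes tested, and 4 had an unadjusted p under 0.05, against 1238 of all 13843. Both counts are near the shares over all genes. The groups did not overlap in 4 of the 45, against 36.5% of all genes tested. The median of the 45 was -0.60 and 1 of 45 had a positive log2 fold change. Their summed level was 578.5 and 885.7 CPM after TNF, against 742.2 and 1281 CPM in untreated cells, 41 members being lower in replicate 1 and 44 in replicate 2. With the replicate block 9 of the 45 fell, against 1.7% of all genes tested. Stat2 had the smallest adjusted p (2.52e-05) among them at 32.8 and 51.8 CPM after TNF, against 60.9 and 98.4 CPM in untreated cells. Macrophage markers moved the same way: 0 of 20 had a positive log2 fold change (median -0.33), 0 were called and 6 fell with the block, Mrc1 and Laptm5 among them. The groups did not overlap in 1 of the 20. Mrc1 stood at 53 and 76.4 CPM after TNF, against 60.8 and 140.3 CPM in untreated cells and Laptm5 at 69.2 and 93.4 CPM after TNF, against 84 and 140.1 CPM in untreated cells. In bulk RNA, fewer cells of a type and less RNA per cell cannot be told apart, and the part of the macrophage RNA in the interferon-stimulated genes was not tested.

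**Figure D3:**
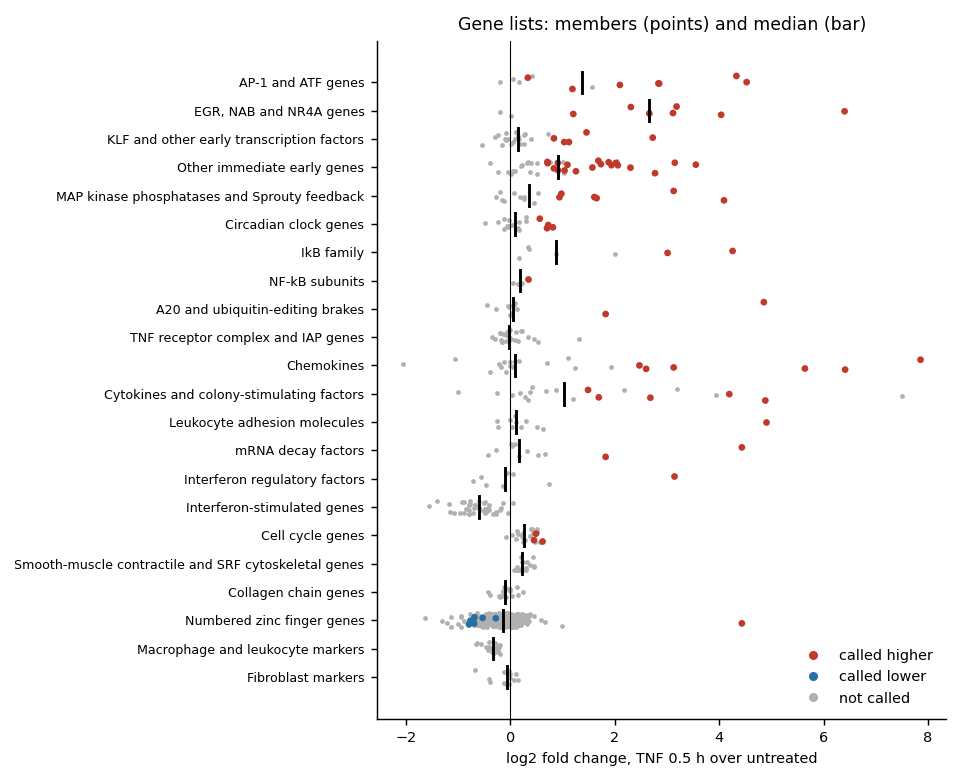
Log2 fold change (WT TNF 0.5 h over untreated, x axis) of the tested members of 22 gene lists (y axis). Points are genes, red where they rose, blue where they fell and grey where they were not called, and the black bar is the list's median; the EGR, NAB and NR4A bar stands furthest right at 2.66 and that of the interferon-stimulated genes furthest left at -0.60.

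Single members moved in several other lists. Of 18 circadian clock genes 4 rose (median 0.09), among them the repressors Per1 (log2 fold change 0.56 ± 0.09), Nr1d1 (0.70 ± 0.14), Bhlhe40 (0.81 ± 0.17) and Nfil3 (0.73 ± 0.12). Per1, which serum and many other stimuli induce, had 38.1 and 38.5 CPM after TNF, against 26.1 and 25.7 CPM in untreated cells, the replicates of a group lying within 1 CPM of each other. Socs3, an inhibitor of cytokine receptors, was called of 10 SOCS and STAT3 feedback genes at 40 and 49.9 CPM after TNF, against 16.2 and 19.1 CPM in untreated cells (log2 fold change 1.34 ± 0.28). Gadd45b, a stress gene and NF-kB target that limits JNK signalling, was called of 17 GADD45 and p53 target genes at 95.9 and 113 CPM after TNF, against 21.8 and 20.6 CPM in untreated cells (log2 fold change 2.31 ± 0.11, adjusted p = 6.91e-09); with the block 5 of the 17 rose. Rgs16, a brake on G-protein signalling, had 97.1 and 98.6 CPM after TNF, against 16.1 and 10.7 CPM in untreated cells (log2 fold change 2.90 ± 0.21). Rnd1 rose outside the lists, at 25.8 and 28.2 CPM after TNF, against 5.08 and 4.94 CPM in untreated cells (log2 fold change 2.43 ± 0.15, adjusted p = 1.01e-07). Has1, a hyaluronan synthase, was also outside the lists and had 2.16 and 2.63 CPM after TNF, against 0.29 and 0.403 CPM in untreated cells (log2 fold change 2.70 ± 0.49).

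A group of smaller rises concerned cell division. Of 24 cell cycle genes 3 were called, Top2a, Aurka and Cdc20, 23 had a positive log2 fold change, the median was 0.26 and 10 rose with the replicate block. Aurka, a mitotic kinase, had 31.2 and 32.4 CPM after TNF, against 19.4 and 21.9 CPM in untreated cells (log2 fold change 0.62 ± 0.11), Cdc20, an activator of the anaphase-promoting complex, 42.3 and 50.8 CPM after TNF, against 31.8 and 34.4 CPM in untreated cells (log2 fold change 0.49 ± 0.09) and Top2a, which untangles chromosomes, 228 and 243 CPM after TNF, against 167 and 177 CPM in untreated cells (log2 fold change 0.45 ± 0.08). Outside that list, 20 further genes of the spindle, chromosome condensation and cytokinesis were among the 126, a group put together after their values were seen and so given without a test. Their log2 fold changes ran between 0.37 and 0.81 with a median of 0.58, and their summed level was 1200.0 and 1232 CPM after TNF, against 790.5 and 854.7 CPM in untreated cells. Cenpf, a kinetochore protein, stood at 65.9 and 65.6 CPM after TNF, against 37 and 42.6 CPM in untreated cells, and Tpx2, which activates Aurka on the spindle, at 101 and 118 CPM after TNF, against 67.2 and 80.4 CPM in untreated cells. None of the 20 differed by the test between 1 h and 0.5 h of TNF. This is near the 1.41% of all genes tested and says nothing about these genes. Their sum at 1 h was 1120.0 and 1138 CPM.

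Of 18 smooth-muscle contractile and SRF cytoskeletal genes none was called, which is near the 1.04% of all genes tested. All 18 had a positive log2 fold change (median 0.23), against 6672 of all 13843 genes tested, and 9 rose with the replicate block. Acta2, the actin of contractile fibroblasts, stood at 3497 and 2888 CPM after TNF, against 2749 and 1936 CPM in untreated cells, the higher level being that of replicate 1 in both groups (log2 fold change 0.45 ± 0.27, adjusted p = 0.681, and 0.00105 with the block). Skeletal and cardiac muscle markers (12 tested, 0 called) summed to 217.7 and 158.7 CPM after TNF, against 167.7 and 108.1 CPM in untreated cells, and their part in this was not tested.

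No member was called without the block among 17 BMP and TGF-beta feedback genes (median 0.07), 14 BCL2 family genes (0.00), 17 matrix metalloproteinase and TIMP genes (-0.14), 18 collagen genes (-0.10), 24 cholesterol synthesis genes (0.07), 22 pattern recognition genes (-0.02) and 14 fibroblast markers (-0.06). Over all genes tested 1.04% were called, so no call in lists of this size is near that share. Of these lists that of the metalloproteinases and TIMPs changed most with the block, with 1 member higher and 3 lower. Of 22 FoxO and quiescence genes (median -0.02) 1 rose and 1 fell. Cited2, a CBP-binding regulator, rose to 178 and 157 CPM after TNF, against 91.5 and 66.2 CPM in untreated cells, and Txnip, a thioredoxin inhibitor, fell by 0.29 on the log2 scale with 176 and 191 CPM after TNF, against 221 and 227 CPM in untreated cells. Epithelial markers (9 tested, 0 called) summed to 109.8 and 84.9 CPM after TNF, against 168.2 and 37.5 CPM in untreated cells, and neuronal markers (6 tested, 0 called) to 49.3 and 52.8 CPM after TNF, against 54.8 and 51.9 CPM in untreated cells.

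The falls were smaller than the rises, and their calls depended more on the libraries used. Of the 18, 1 was still called without TNF replicate 1 (Zfp866), 1 without TNF replicate 2 (Enpp2), 5 without untreated replicate 1, 3 without untreated replicate 2, 1 with WT libraries alone (Mgp) and 11 with DESeq2. Prlr (chr15:10177238-10349180), the prolactin receptor, had 2.3 and 3.29 CPM after TNF, against 6.82 and 8.67 CPM in untreated cells (log2 fold change -1.47 ± 0.29, adjusted p = 0.021). Enpp2 (chr15:54838898-54920146), which encodes autotaxin and makes lysophosphatidic acid, had 17.6 and 20.8 CPM after TNF, against 45.4 and 42.8 CPM in untreated cells (log2 fold change -1.20 ± 0.19, adjusted p = 0.00436). In both genes the higher TNF library lay well below the lower untreated one, although some separation was required by the choice of named falls. The predicted gene Gm12258 had 2.43 and 3.03 CPM after TNF, against 5.51 and 6.35 CPM in untreated cells and fell too. Several secreted or matrix genes fell by less: Sned1 (log2 fold change -0.67 ± 0.14), Mgp, an inhibitor of calcification (-0.59 ± 0.13), Ogn, a small leucine-rich proteoglycan (-0.53 ± 0.09), Edil3, an integrin ligand (-0.46 ± 0.10), and Ltbp3, which binds latent TGF-beta (-0.34 ± 0.07). Mgp had 184 and 179.8 CPM after TNF, against 278 and 270.1 CPM in untreated cells. The peptidase gene Cpq (-0.40 ± 0.08) and the chromatin gene Phf13 (-0.55 ± 0.11) fell as well.

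Numbered zinc finger genes, most of which encode repressors with a KRAB domain, made up 7 of the 18 falls. Leaving out Zfp36, which is the tristetraprolin gene and not a member of that family, 322 were tested, of which 7 fell, 0 rose and 93 had a positive log2 fold change (median -0.14). With the block 20 fell, against 1.7% of all genes tested. Of the 7, 1 was still called without TNF replicate 1, 0 without TNF replicate 2, 2 without either untreated replicate in turn, 0 with WT libraries alone and 2 with DESeq2 (Zfp799 and Zfp866). The 7 were Zfp760 (log2 fold change -0.79 ± 0.18), Zfp799 (-0.76 ± 0.14), Zfp952 (-0.71 ± 0.13), Zfp157 (-0.69 ± 0.15), Zfp866 (-0.69 ± 0.11), Zfp629 (-0.53 ± 0.12) and Zfp655 (-0.28 ± 0.06). Zfp866 had 14.7 and 13 CPM after TNF, against 21.9 and 22.8 CPM in untreated cells (adjusted p = 0.00286) and Zfp799 12.2 and 12.8 CPM after TNF, against 20.9 and 21.5 CPM in untreated cells (adjusted p = 0.0115). These genes have similar sequences, and how reads that map to several places were counted is not given in the sources used here, so reads could be shared between them. The summed level of the 322 was 6619 and 6649 CPM after TNF, against 6880.0 and 7157 CPM in untreated cells, lower after TNF in both replicates.

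Some of the genes that rose were already falling at 1 h and some were still climbing, while most did not differ between 0.5 h and 1 h by the test. Between 1 h and 0.5 h of TNF in WT cells 195 of the 13843 genes differed (1.41%). Of the 126 genes, 32 stood higher at 1 h, against 0.932% of all genes tested, and 16 lower, against 0.477%. This comparison shares the 0.5 h libraries with the first one. Fos stood at 16 and 12.8 CPM at 1 h, against 172 and 214 CPM at 0.5 h (log2 difference -3.75 ± 0.28, adjusted p = 2.72e-06). Dusp1 (-2.37 ± 0.20), Zfp36 (-2.11 ± 0.13), Ier2 (-1.93 ± 0.13), Egr1 (-1.81 ± 0.14) and Ier3 (-1.19 ± 0.15) were lower at 1 h as well, as were Nfkbiz, Arc, Spry2, Bcorl1, Klf2, Egr2, Btg2, Ppp1r15a, Jun and Ints6.

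Among the 32 genes still climbing were the chemokines Cxcl10, with 148 and 187 CPM at 1 h against 35.9 and 54 CPM at 0.5 h, Ccl20 (1.63 ± 0.11) and Ccl2 (1.43 ± 0.14), Rnd1 (1.81 ± 0.12), Sele (1.78 ± 0.23) and Irf1 (1.31 ± 0.15), and the inhibitors Tnfaip3 (0.93 ± 0.13), Zc3h12a (1.20 ± 0.15) and Nfkbia (0.63 ± 0.10). Irf1 had 478 and 565 CPM at 1 h, against 187 and 233 CPM at 0.5 h. At 1, 3 and 8 h the mean level of Ccl2 was 700.2, 1169 and 1644 CPM, that of Tnfaip3 613, 220.1 and 201 CPM, that of Fos 14.4, 9.75 and 11.1 CPM and that of Nr4a1 247, 5.97 and 6.34 CPM. The mean of Ccl2 was thus higher at each later time, Tnfaip3 was highest at 1 h, and Nr4a1 held its level until 1 h. Over the whole course the highest mean of the 126 genes was at 0.5 h for 58, at 1 h for 58, at 3 h for 3 and at 8 h for 7. These genes were called from the 0.5 h libraries themselves, so the choice favours 0.5 h, and the same holds for the falls. Of the 18 genes that fell, 8 had their lowest mean at 0.5 h, 7 at 1 h and 3 at 8 h, and 1, Zfp655, was called higher at 1 h than at 0.5 h.

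**Figure D4:**
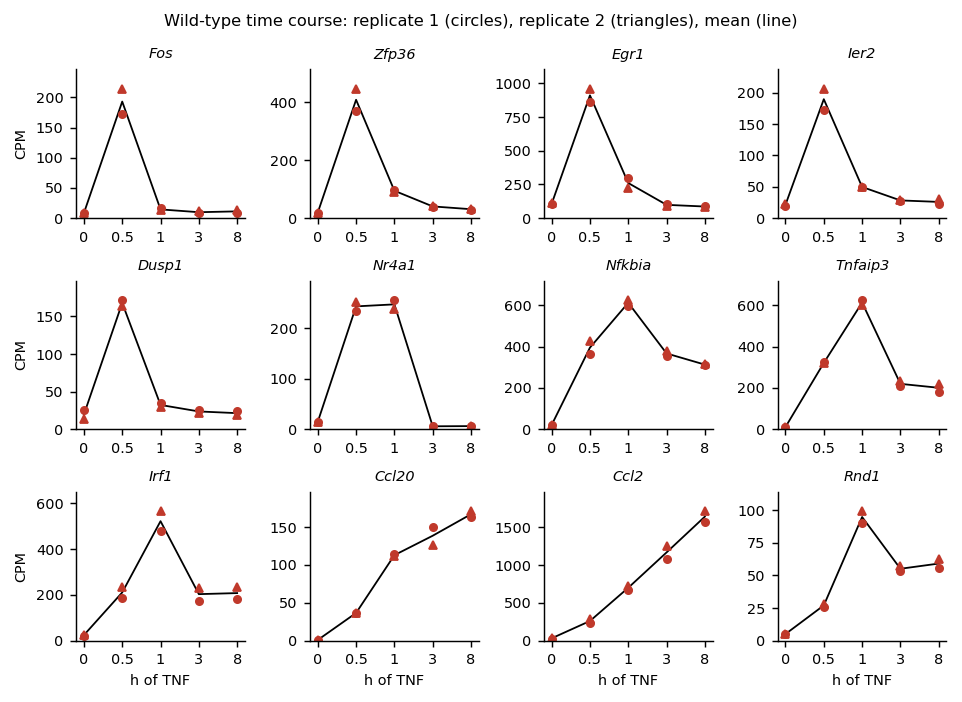
CPM (y axis, a scale for each gene) of 12 genes in untreated WT cells (0) and after 0.5, 1, 3 and 8 h of TNF (x axis, not to scale). Circles are replicate 1, triangles replicate 2 and the line joins the means; Fos, Zfp36, Egr1, Ier2 and Dusp1 are highest at 0.5 h, Tnfaip3, Nfkbia, Irf1 and Rnd1 at 1 h, and Ccl20 and Ccl2 at 8 h.

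The same 0.5 h of TNF was given to RelA-TA-KI fibroblasts, which asks how far the early response depends on the altered RelA. There 148 genes were called (1.07% of genes tested), 115 as rises (0.831%) and 33 as falls (0.238%). Of the genes that rose, 76 did so in both genotypes, 60.3% of the WT genes and 66.1% of the RelA-TA-KI genes, and 124 of the 126 WT genes had a positive log2 fold change in RelA-TA-KI cells. Of the 18 WT falls all were negative there and 9 were called (Cpq, Enpp2, Gm12258, Ltbp3, Mgp, Ogn, Txnip, Zfp760 and Zfp866).

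The difference between the responses, RelA-TA-KI minus WT, passed the test for 7 genes (0.0506% of genes tested), all among the 126 and all with the smaller rise in RelA-TA-KI cells. Nfkbia had 28.3 and 33.5 CPM in RelA-TA-KI cells after TNF, against 19 and 21.3 CPM in untreated RelA-TA-KI cells, a log2 fold change of 0.62 ± 0.13 where WT cells gave 4.26 ± 0.12. Tnfaip3 had 20.4 and 17.4 CPM after TNF, against 8.23 and 8.11 CPM untreated (log2 fold change 1.20 ± 0.19). Irf1 had 25.9 and 29.1 CPM after TNF, against 25.1 and 27.2 CPM untreated (log2 fold change 0.07 ± 0.18), so that its groups overlapped in these cells. Gadd45b had a log2 fold change of 0.35 ± 0.12 in RelA-TA-KI cells, Rnd1 of 0.31 ± 0.19, Ccl2 of 1.26 ± 0.16 and Gem of 0.71 ± 0.15. With the replicate block within genotype 28 genes differed, 20 with the lower and 8 with the higher response in RelA-TA-KI cells. Gene by gene, 19 members of the 3 lists of early transcription factors rose in WT cells, and none of the 19 differed between the genotypes by the test. Their differences ran between -1.31 (Egr4, a gene of few counts) and 0.36 with a median of -0.02, 11 of the 19 being negative. The largest after Egr4 were those of Klf10 (-0.91 ± 0.16, adjusted p = 0.0901), with log2 fold changes of -0.07 ± 0.12 in RelA-TA-KI cells and 0.83 ± 0.11 in WT cells, and Csrnp1 (-0.74 ± 0.21, adjusted p = 1). Among abundant immediate early genes described above the difference was -0.17 ± 0.41 for Fos, -0.03 ± 0.19 for Egr1, -0.02 ± 0.17 for Nr4a1, -0.11 ± 0.13 for Junb and 0.08 ± 0.11 for Btg2. It was further from 0 for Ier2 (-0.35 ± 0.19), Ier3 (-0.65 ± 0.24), Dusp1 (0.68 ± 0.30) and the mRNA decay gene Zfp36 (-1.12 ± 0.21, adjusted p = 0.155). None of these passed the test, while Gem, also on an immediate early list, did. Large differences with wide errors did not pass either. Among them were those of Ccl20 (-4.04 ± 0.69, adjusted p = 0.0654) and Cxcl1 (-3.17 ± 0.70, adjusted p = 0.504). So were those of Sele (-3.94 ± 0.91, adjusted p = 0.591), Tnf (-2.79 ± 0.79) and Cxcl10 (-2.73 ± 0.65). Dusp2, a gene of few counts, had a difference of -3.81 ± 1.43. Of 23 chemokine genes, 4 rose in RelA-TA-KI cells, namely Cxcl2, Cxcl1, Ccl2 and Ccl7. Cxcl2 rose there by 6.25 ± 0.71 on the log2 scale (adjusted p = 0.000195). Cxcl1 rose there by 3.24 ± 0.43 (adjusted p = 0.00079). Ccl20 and Cxcl10 did not pass the test in RelA-TA-KI cells.

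LPS, a bacterial activator of TLR4, and Poly(I:C), a mimic of viral double-stranded RNA, were each given for 0.5 h to WT cells in 1 library with 1 untreated library, so that no test was possible. Values are log2 ratios of CPM to that untreated library with a prior count of 2, which understates the change of low genes. With LPS 52 of the 126 genes were at least 2-fold higher, against 1.44% of all genes tested. With Poly(I:C) 12 of the 126 were, against 0.592%. Of the 64 genes that rose at least 2-fold with TNF, 50 did so with LPS and 12 with Poly(I:C), with median ratios of 2.04 and 0.40. Of the 62 smaller rises, 2 did so with LPS and 0 with Poly(I:C), with medians of 0.04 and -0.12.

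The Poly(I:C) genes were the immediate early genes Btg2, Ccn1, Dusp2, Egr1, Egr2, Egr3, Fosb, Ier2, Maff, Nr4a1 and Nr4a3, and Has1. Of these, Dusp2 and Has1 were near the floor, at 0.498 and 0.299 CPM with Poly(I:C) against 0 CPM untreated, so their ratios rest on few reads. Sele entered the LPS count in the same way, at 0.312 CPM with LPS against 0 CPM untreated. Fosb had 19.6 CPM with Poly(I:C) and 36.7 CPM with LPS, against 1.71 CPM untreated. Tnfaip3 had 11.7 CPM with Poly(I:C) and 353 CPM with LPS, against 10.7 CPM untreated. Tnf had 5.38 CPM with Poly(I:C) and 500.4 CPM with LPS, against 3.42 CPM untreated, and Cxcl2 had 1.59 CPM with Poly(I:C) and 208 CPM with LPS, against 1.08 CPM untreated. Fosb was thus higher with both agents, and Tnfaip3, Tnf and Cxcl2 stood far above the untreated library with LPS. Among the genes that rose at least 2-fold with TNF, 5 had an LPS log2 ratio under 0.5: Ccl20 (0.34), Lif (0.01), Rnd1 (0.43), Mex3b (0.29) and Tcim (0.28). The 20 spindle and cytokinesis genes summed to 440.6 CPM with Poly(I:C) and 574.8 CPM with LPS, against 597.5 CPM in the untreated library. In RelA-TA-KI cells they summed to 1222 and 1323 CPM after TNF, against 904.0 and 973.7 CPM untreated. There 8 of the 20 rose, against 0.831% of all genes tested. None of the 18 genes that fell with TNF, 3 of them at least 2-fold, was at least 2-fold lower with LPS or Poly(I:C). Over all genes tested the shares were 0.506% and 0.693%, so 0 of 18 is near these shares and says nothing about these genes. With LPS 10 of the 18 had a negative log2 ratio (median -0.07), and with Poly(I:C) 11 did (median -0.04).

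**Figure D5:**
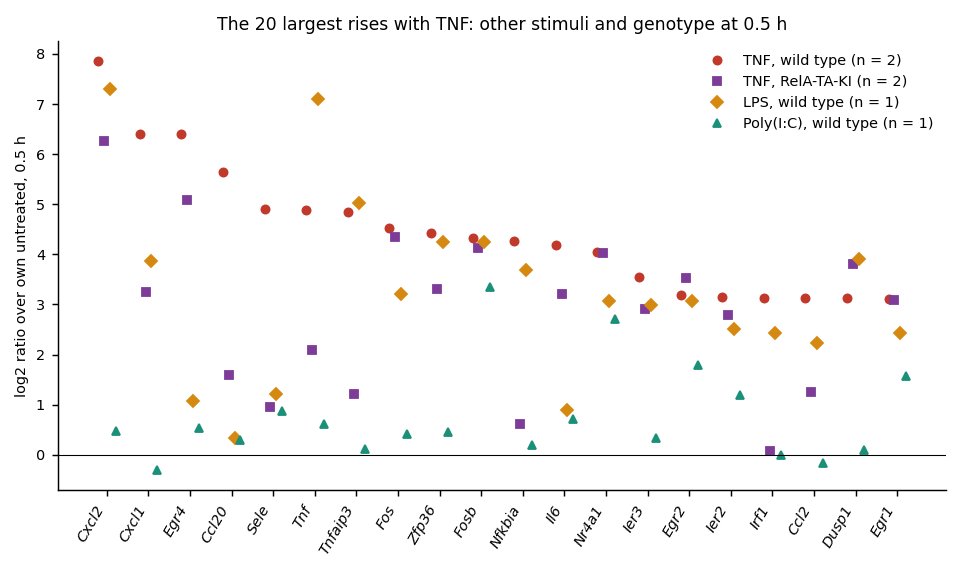
Log2 ratio over the matching untreated cells after 0.5 h (y axis) for the 20 genes with the largest rise in TNF-treated WT cells (x axis). Red circles are TNF in WT cells (fitted fold change, n = 2), purple squares TNF in RelA-TA-KI cells (fitted, n = 2), orange diamonds LPS and green triangles Poly(I:C) in WT cells (CPM ratio with a prior count of 2, n = 1); Nfkbia, Tnfaip3 and Irf1 have high red and orange symbols with low purple and green ones, while for Fos, Nr4a1 and Egr1 red and purple lie together.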

How the data were processed

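Poly(A) RNA of primary fibroblasts was sequenced as single-end 50 bp reads from a stranded kit, per the labels' protocols. Reads were trimmed with cutadapt 1.9.1, aligned to mm10 with STAR and counted with featureCounts 1.4.6, and DESeq2 is also named, per the submitters' processing notes. The authors deposited whole-number counts of reads in each gene, not normalized, beside a gene model length. The TNF libraries are in 1 table and the LPS and Poly(I:C) libraries in another. Which annotation release was used, how strand was set and what became of multi-mapping reads is not given in the sources used here; overlapping or near-identical genes are therefore uncertain. Of 45706 identifiers 45143 were given a symbol, and 0 columns of samples were left out.

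All 20 TNF libraries (10 groups of 2, 6715022 to 9590932 counts) entered 1 edgeR 4.0.16 fit in R 4.3.3, normalized by TMM. Low genes were removed by filterByExpr, which left 13843, each group had its own mean, and 10 residual degrees of freedom remained for the quasi-likelihood F test. P-values were adjusted over the 13843 genes by the Benjamini-Hochberg method; a gene was called at an adjusted p under 0.05. The biological coefficient of variation was 10.2%. SEs were obtained from the fold change and F. CPM use TMM-scaled totals (of the tested genes for TNF, of all genes for LPS and Poly(I:C)) and RPKM also the deposited lengths. Intervals of count ratios are 95% binomial intervals and cover counting error only, since the reads carry no molecular identifiers. LPS and Poly(I:C) ratios use a prior count of 2 and have no test. Same-numbered WT libraries deviated together in every pair of groups (correlation 0.161 to 0.529), as did RelA-TA-KI libraries (0.161 to 0.370), so the numbers were taken to pair the samples and a fit with replicate as a block within genotype (8 residual degrees of freedom) is given beside counts it changes.

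Genes were named by rule: the 20 largest rises and all falls among called genes averaging 20 counts or more whose groups were separate, up to 6 called members of each list or else its most abundant member, Rela, and up to 6 genes at each end of the 2 further tests. Genes named because they passed with the block alone, Il1b, Csf1r, Mex3b, Tcim, further called immediate early genes, and the spindle and cytokinesis group were chosen after their values were seen. The comparison, its gene lists and tests were chosen with earlier results of these data known. Alternatives were DESeq2 1.42.0, other normalizations, filters and sample sets, replicate blocks, and leaving out each library. Scripts were tested on simulated counts.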

Additional observations from a re-analysis of the deposited data

Results flagged for a closer look

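For 7 genes the RelA-TA-KI response to 0.5 h of TNF differed from the WT response by a test of the difference itself (edgeR, adjusted over 13843 genes). The log2 difference, RelA-TA-KI minus WT, was -3.65 for Tnfaip3 (adjusted p = 5.46e-06), -3.64 for Nfkbia (adjusted p = 6.17e-08), -3.06 for Irf1 (adjusted p = 2.75e-05), -2.12 for Rnd1 (adjusted p = 0.0016), -1.96 for Gadd45b (adjusted p = 2.75e-05), -1.87 for Ccl2 (adjusted p = 0.0016) and -1.59 for Gem (adjusted p = 0.00388). In each the rise was smaller in RelA-TA-KI cells. All 7 were also called in each fit that left out 1 of the 8 libraries of that contrast. In the fit of those 8 libraries alone 6 of the 7 were called, and Rnd1 was not (log2 difference -2.12, adjusted p = 0.0759).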

How the results depend on the processing

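The 144 calls of WT TNF 0.5 h came to 460 with no filter on low counts (26172 genes tested, 135 shared), 68 with the libraries of the contrast alone, 73 with WT libraries alone, 604 with the replicate block within genotype and 464 with a block shared across genotypes, and lay between 82 and 94 when 1 library was left out. The 7 differing responses came to 13 with DESeq2, 108 with no filter, 28 with the replicate block within genotype and 17 with the shared block. The 195 calls between 1 h and 0.5 h came to 399 with no filter, 88 with the libraries of the contrast alone, 97 with WT libraries alone, 498 with the replicate block within genotype, 421 with the shared block, and 94 to 109 when 1 library was left out. DESeq2 (137), RLE normalization (145), library totals (126) and a mean of at least 20 counts (145) kept the first count within 1.5 times. Fewer samples in a fit leave fewer residual degrees of freedom; the cause of the other moves was not tested. None of the 80 named genes that were called changed direction under any of these, while 8 of the 15 not called, none past 0.29 on the log2 scale, did so when 1 library was left out (Col1a1, Des, Irak1, Kdr, Krt19, Lyz2, Tab2 and Tubb3). Of the 80, 9 lost their call with DESeq2, 31 with WT libraries alone, and 23 to 30 when 1 library was left out; these last were mostly falls and rises under 2-fold. Nfkb2, Dusp2, Zfp655 and Zfp157 lost it most often. Depth limits statements on Egr4, Dusp2 and Il1b, with 0 or 1 untreated counts.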
